A study of Mus musculus with 10 samples.

Results

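The 8 genes described here encode transcription factors of effector regulatory T cells (Treg cells): Prdm1, Batf, Batf3, Irf4, Maf, Id2, Nfil3 and Ikzf3. They were taken by gene symbol from a count table of 55291 genes, in which each symbol matched 1 gene, and all 8 passed the filter on low counts that left 20068 genes for testing. The libraries came from Treg cells of Foxp3YFP-cre mice, a strain in which the Foxp3 locus also drives a yellow fluorescent protein and Cre recombinase, so every group, the control included, carries that allele. The control group (LN) was 4 libraries from lymph nodes of mice without a tumour. The Hepa1-6 group was 4 libraries from subcutaneous Hepa1-6 tumours, a mouse hepatoma line, taken at day 23 after injection. The E.G7 group was 2 libraries from subcutaneous E.G7 tumours, a mouse T cell lymphoma line that expresses ovalbumin, taken at day 21. Both tumour groups were sorted from CD4+ T cells of the tumour infiltrate, and the sources used here do not give the age of the mice. The study set Treg cells of tumours, of which it held a larger part to have arisen outside the thymus, beside lymph node Treg cells of mainly thymic origin. Day, tumour line and the site of the cells go together in these groups and cannot be told apart.

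Resting Treg cells in lymphoid organs become effector Treg cells after stimulation through the T cell receptor and costimulatory receptors, and then enter tissues and make IL-10 and other suppressive products. IRF4 binds DNA together with BATF or BATF3 and JUN proteins at composite sites, and this complex is induced by receptor signals. BLIMP1, the repressor encoded by Prdm1, and MAF act further down and are tied to IL-10, while ID2 blocks the E proteins, NFIL3 is a basic leucine zipper repressor and Ikzf3 encodes Aiolos, a zinc finger protein of the Ikaros family.

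The libraries held 22665563 to 26665325 counted reads, and levels are given as CPM (reads of a gene relative to the scaled size of its library) after TMM scaling, a scaling on the genes that differ least. No label says that the replicates came from separate mice, and the p-values then rest on a spread between libraries that may be technical only. Foxp3, which defines Treg cells and whose exons overlap those of 4 other genes in the table, Flicr on the same strand among them, was present in all 10 libraries, at 109 ± 10.8 CPM in LN (SD, n = 4), 82.0 ± 11.0 in Hepa1-6 (SD, n = 4) and 50.2 ± 4.34 in E.G7 (SD, n = 2). Cd4 stood at 760 ± 34.8, 619 ± 22.1 and 661 ± 35.1 CPM in the same order. Of 12 pan T cell genes, 3 were higher and 8 lower in Hepa1-6 than in LN, and none was higher and 7 were lower in E.G7. Foxp3 was lower than in LN in both tumours (log2 -0.40 in Hepa1-6 and -1.11 in E.G7). Of 6 Treg-defining genes, Foxp3 among them, 2 were higher and 3 lower in Hepa1-6, and 2 higher and 4 lower in E.G7. Il2ra stood at log2 -1.04 in E.G7, and Ctla4 at 1.78 in Hepa1-6 and 1.62 in E.G7. Scaled on the pan T cell genes, these counts were 3 and 0 in Hepa1-6 and 2 and 2 in E.G7. The fall of Foxp3 in Hepa1-6 was then not called (log2 -0.21). Markers of other cells moved with the tumour groups. All 10 dendritic cell markers were higher in Hepa1-6 than in LN and in E.G7 than in LN, with summed levels of 153 to 174 CPM in LN, 8216 to 8672 in Hepa1-6 and 1505 to 1555 in E.G7. Cd74, H2-Ab1 and H2-Aa made up most of the tumour sums. They stood at 4909, 2144.5 and 1256 CPM in Hepa1-6 and 881, 349 and 229 CPM in E.G7. The next gene of the list was Itgax in Hepa1-6 (87.7 CPM) and Zbtb46 in E.G7 (27.5 CPM). All 12 macrophage and neutrophil markers were also higher in both tumours, with sums of 24.7 to 35.9 CPM in LN, 3544 to 3916 in Hepa1-6 and 712 to 746 in E.G7, and S100a9 at 0 in LN. Of 10 markers of CD8 T cells, NK cells and innate lymphoid cells, 9 were higher in Hepa1-6 and 8 in E.G7 against LN (sums of 29.8 to 34.4, 516 to 556 and 145 to 146 CPM, with Ncr1 at 0 in LN), and Cd8a rose from 2.27 ± 0.841 CPM in LN to 130 ± 3.45 in Hepa1-6 and 22.8 ± 0.129 in E.G7. Hepatoma markers summed to 3251 to 3351 CPM in Hepa1-6 against 29.9 to 36.7 in LN and 237 to 258 in E.G7, with H19 and Serpina1a at 0 in all 3 groups and Ttr at 0 in E.G7, and of the 7 that passed the filter 7 were higher in Hepa1-6 and 5 higher and 1 lower in E.G7. Apoe (128 CPM) and Trf (115 CPM) made up most of the hepatoma sum in E.G7. Alb, Krt18 and Afp stood at 370, 537 and 56.7 CPM in Hepa1-6. In E.G7 they stood at 0.0554, 1.29 and 1.96 CPM, with Afp below its LN level (6.475 CPM). Of 10 stromal markers, 9 were higher and 1 lower in each tumour. Trap1a, a tumour antigen gene in the lymphoma list, stood at 127 ± 7.92 CPM in E.G7. E.G7 is a T cell line, and the part of its cells in the pan T cell levels was not tested. This also limits the scaling on pan T cell genes used below. Several of the factors below are also made by these other cells, and the part of these cells in the results that follow was not tested.

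**Figure D1:**
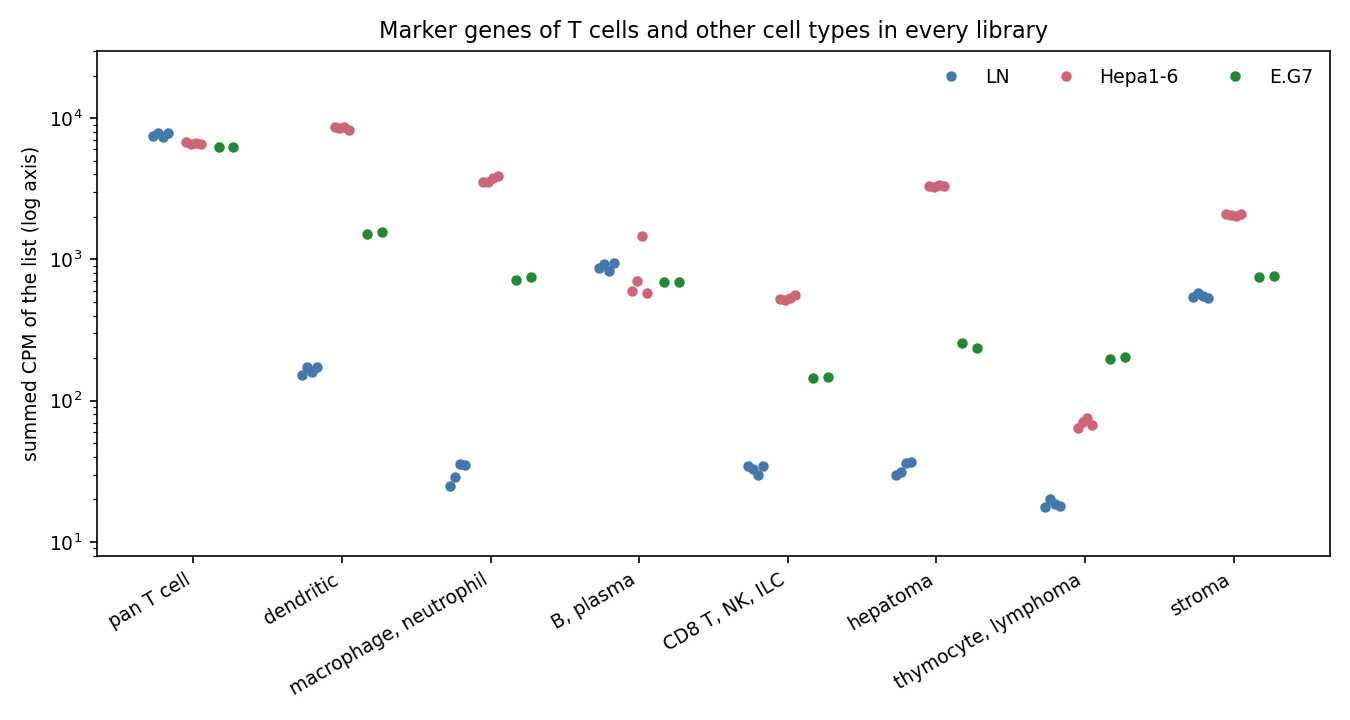
Summed level (CPM, log axis) of 8 marker lists in every library, 1 point per library, with LN in blue, Hepa1-6 in red and E.G7 in green. Pan T cell genes lie close together in the 3 groups, while the sums of the dendritic and macrophage markers are highest in Hepa1-6, between in E.G7 and lowest in LN.

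Against LN, 7 of the 8 factor genes were higher in Hepa1-6 Treg libraries and none was lower, where 37% of all genes tested were higher and 31.1% were lower by the same test (edgeR quasi-likelihood, Benjamini-Hochberg adjusted p under 0.05). In E.G7 against LN, 8 of 8 were higher and none was lower, where 32.7% of all genes were higher and 27.2% lower. Batf3, with 0 reads in LN, passed the filter on low counts through the tumour libraries and could only be called higher, and without it the counts were 6 of 7 and 7 of 7. The 2 comparisons share the LN libraries. The median log2 difference of the 8 was 1.97 in Hepa1-6 and 1.19 in E.G7, against 0.04 and 0.01 for all genes tested. The size of the difference varied widely among the 8: Nfil3, Id2 and Prdm1 were several-fold higher in both tumours, Maf was 2.20-fold higher in Hepa1-6 and 1.24-fold in E.G7, Irf4 and Batf were 1.40 to 1.49-fold higher, Ikzf3 was close to its LN level, and Batf3 had no read in LN. With scaling to 12 pan T cell genes in place of TMM, the median of all genes tested moved up by 0.20 on the log2 scale in Hepa1-6 and 0.28 in E.G7, and with upper-quartile scaling it moved by -0.17 in Hepa1-6. Calls over all genes were 7419 higher and 6237 lower in Hepa1-6 and 6554 and 5459 in E.G7, against 8793 and 4602, and 8355 and 3726, with the pan T cell scaling, under which 8 of the 8 factor genes were higher in each tumour. With upper-quartile scaling the balance over all genes turned, to 6356 higher and 7754 lower in Hepa1-6 and 5857 and 6266 in E.G7, and 7 of the 8 factor genes were higher in each. Since these are bulk samples, fewer cells of a type and less RNA per cell cannot be told apart.

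**Figure D2:**
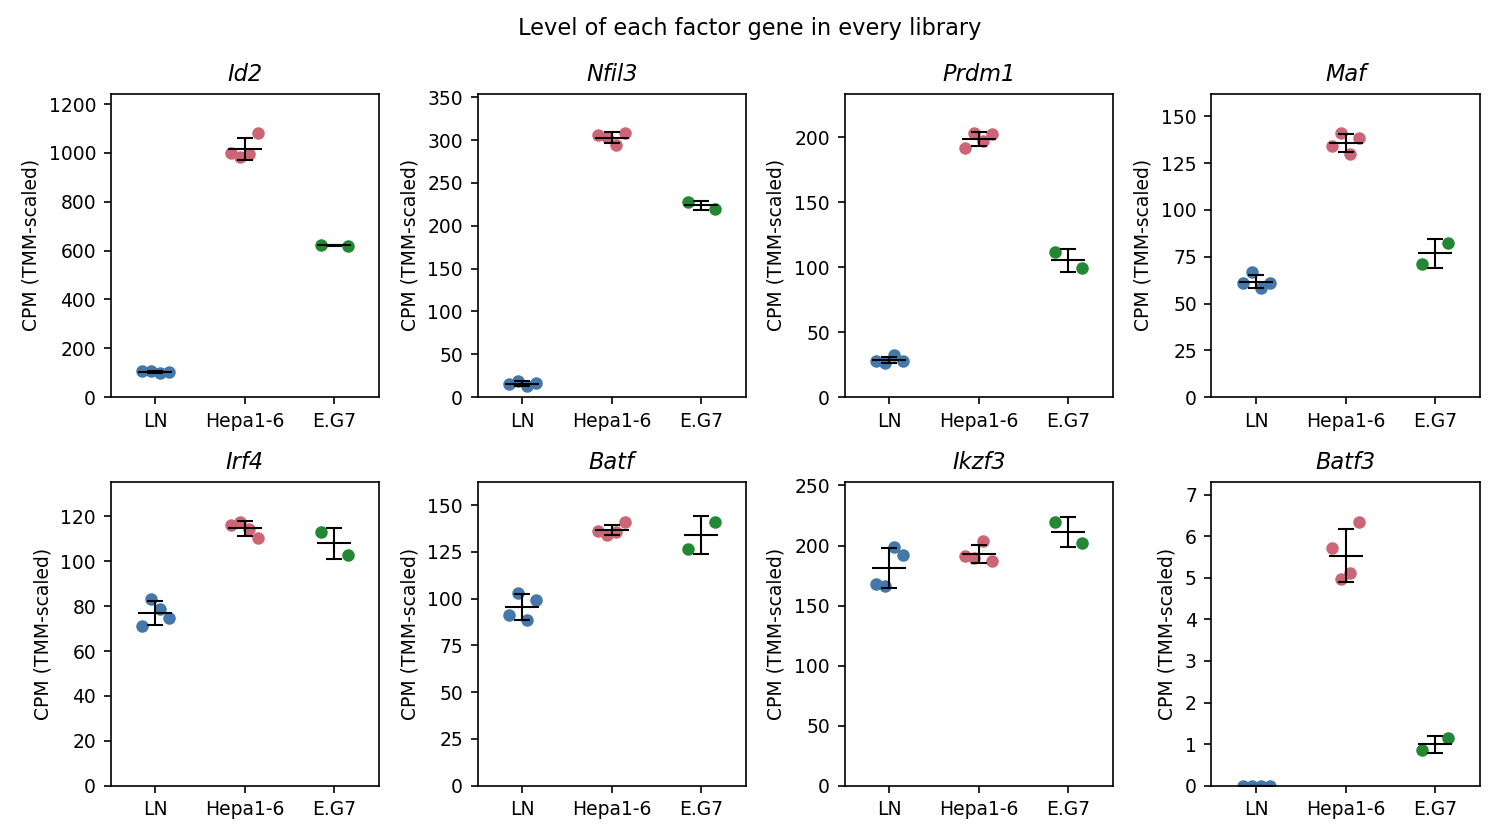
Level (CPM, TMM-scaled, axes from 0) of each factor gene in every library of LN, Hepa1-6 and E.G7, with points for libraries and bars for the mean and SD (n = 4, 4 and 2). Id2, Nfil3, Prdm1, Maf and Batf3 step from LN to E.G7 to Hepa1-6 without overlap, while Batf and Irf4 lie at like levels in the 2 tumours and the Ikzf3 libraries of LN and Hepa1-6 overlap.

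Id2 encodes a helix-loop-helix protein without a DNA-binding region that holds E proteins away from DNA, and it was the most abundant of the 8 per length in both tumours. Its level was 108, 105, 99.8 and 104 CPM in the 4 LN libraries, 1000, 983, 997 and 1081 CPM in the 4 Hepa1-6 libraries and 623 and 620 CPM in the 2 E.G7 libraries. The 3 groups lay apart, with every Hepa1-6 library above every E.G7 library and both above LN. The difference from LN was 9.74-fold in Hepa1-6 (log2 3.28 ± 0.05 SE, edgeR adjusted p 1.49e-17) and 5.96-fold in E.G7 (log2 2.58 ± 0.05 SE, adjusted p 3.50e-15). Dendritic cells and innate lymphoid cells also express Id2. The dendritic sum rose in the same libraries, as did that of the mixed list of CD8 T cell, NK cell and innate lymphoid markers. Prf1 (178 CPM) and Cd8a (130 CPM) led the mixed list in Hepa1-6. Of its other genes, Ncr1 stood at 0.483 CPM in Hepa1-6 and 0.111 in E.G7. Klrb1c stood at 0.981 CPM in LN, 0.597 in Hepa1-6 and 0.924 in E.G7. The part of these cells in the Id2 level was not tested.

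Nfil3 encodes a basic leucine zipper factor that competes with the activators DBP, TEF and HLF for D-box sites and acts in cytokine control in T cells. It had the widest difference from LN among the 7 factors with reads there. The LN libraries held 15.3, 18.9, 12.5 and 16.5 CPM, the Hepa1-6 libraries 306, 303, 294 and 308 CPM and the E.G7 libraries 228 and 220 CPM. No library of a tumour came near the LN range, and Nfil3 had the largest relative spread within LN of the 7 (coefficient of variation 16.9%). It was 19.2-fold higher in Hepa1-6 (95% interval 16.7 to 22.1, adjusted p 4.62e-15) and 14.2-fold higher in E.G7 (12.2 to 16.5, adjusted p 1.44e-13), both by edgeR.

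Prdm1 encodes BLIMP1, the repressor that marks effector Treg cells and plasma cells. LN libraries held 27.8, 26.6, 32.4 and 27.5 CPM, Hepa1-6 libraries 192, 203, 197 and 202 CPM and E.G7 libraries 112 and 99.2 CPM. Again the groups did not overlap and E.G7 lay between. The fold over LN was 6.95 in Hepa1-6 (6.26 to 7.71, edgeR adjusted p 7.21e-15) and 3.69 in E.G7 (3.29 to 4.14, adjusted p 1.07e-11). Of 10 B cell and plasma cell markers, 7 were higher and 2 lower in Hepa1-6 than in LN, and 6 were higher and 2 lower in E.G7. Their summed level was 833 to 942 CPM in LN, 576 to 1453 in Hepa1-6 and 692 to 697 in E.G7. Sdc1, a plasma cell marker of that list, rose from 0.817 ± 0.399 CPM in LN to 63.1 ± 3.75 in Hepa1-6 and 3.29 ± 0.135 in E.G7. Igkc and Jchain, antibody genes, stood at 303 ± 340 and 66.4 ± 91.1 CPM in Hepa1-6 (SD, n = 4), with replicate 3 far above the rest (809 and 202 CPM). The other Hepa1-6 libraries held 88.3 to 188 CPM of Igkc and 11 to 33 CPM of Jchain. Sdc1 did not follow them and was even over the Hepa1-6 libraries (59.1 to 66.4 CPM). Mzb1, of the same list, stood at 0.743 ± 0.766 CPM in Hepa1-6. The part of plasma cells in the Prdm1 level was not tested.

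Upstream sequence is shown for the 3 genes with the widest differences among those with reads in LN, and for Batf as a factor whose difference was small. RefSeq (GRCm38.p6) gave a start site for 6 of the 8 genes; Maf and Ikzf3 had no entry. Each line runs 5′ to 3′ on the strand of the gene, within the 250 bases before the RefSeq start, and stops before any exon of that gene in the deposited table. Capitals mark matches to the motifs searched on both strands: AP-1 (TGANTCA), the Ikaros-type site (TGGGAA) and the E-box bound by E proteins (CAGNTG). The Prdm1 stretch is chr10:44458749-44458998 (minus strand), that of Nfil3 is chr13:52981074-52981289 (minus), that of Id2 is chr12:25096254-25096342 (minus) and that of Batf is chr12:85686470-85686668 (plus). Those of Prdm1 and Id2 lie between exons of their genes as counted, and those of Nfil3 and Batf lie just outside the first annotated base of the gene.
Prdm1: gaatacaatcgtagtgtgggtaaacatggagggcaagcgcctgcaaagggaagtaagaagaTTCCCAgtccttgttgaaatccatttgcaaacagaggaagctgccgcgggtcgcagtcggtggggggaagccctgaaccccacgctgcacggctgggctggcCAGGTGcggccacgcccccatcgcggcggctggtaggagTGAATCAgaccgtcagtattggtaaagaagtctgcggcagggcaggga
Nfil3: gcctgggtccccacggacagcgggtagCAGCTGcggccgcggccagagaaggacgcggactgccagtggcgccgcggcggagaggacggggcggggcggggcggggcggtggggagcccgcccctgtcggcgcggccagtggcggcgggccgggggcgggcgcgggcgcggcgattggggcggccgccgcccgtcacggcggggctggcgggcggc
Id2: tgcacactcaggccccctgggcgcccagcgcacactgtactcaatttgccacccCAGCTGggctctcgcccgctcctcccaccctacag
Batf: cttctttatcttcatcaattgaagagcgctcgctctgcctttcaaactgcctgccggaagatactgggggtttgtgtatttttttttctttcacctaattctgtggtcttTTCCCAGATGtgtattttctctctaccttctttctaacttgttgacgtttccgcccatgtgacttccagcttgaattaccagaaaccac
The Prdm1 stretch holds an AP-1 match that begins 48 bases before the start, an E-box at 87 and an Ikaros-type match at 189. In the Batf stretch the Ikaros-type match, at 140, overlaps an E-box at 136. Id2 and Nfil3 each hold an E-box, at 196 and 223. Among 32851 RefSeq promoters, windows of the same 250 bases held an AP-1 match in 6.75%, an Ikaros-type match in 21.59% and an E-box in 44.82%. An interferon response core (GAAANNGAA, in 7.13% of windows) and an NFIL3-type site (TTANNTAA, in 5.43%) were in none of the 6 windows, and those of Irf4 and Batf3 held none of the 5 motifs. A match is a description of letters and not a bound site.

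BATF and IRF4 form the receptor-induced complex, and both genes were already well expressed in LN. Batf stood at 91.3, 103, 88.4 and 99.4 CPM in LN, at 136, 134, 136 and 141 CPM in Hepa1-6 and at 127 and 141 CPM in E.G7. All 6 tumour libraries lay above all 4 LN libraries, and the 2 tumours overlapped. The fold over LN was 1.43 in Hepa1-6 (1.31 to 1.56, edgeR adjusted p 1.46e-06) and 1.40 in E.G7 (1.26 to 1.56, adjusted p 2.75e-05).

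Irf4 followed the same pattern. Its LN libraries held 71.1, 83.1, 78.9 and 74.9 CPM, those of Hepa1-6 held 116, 118, 114 and 110 CPM and those of E.G7 113 and 103 CPM. No tumour library fell into the LN range. The fold over LN was 1.49 in Hepa1-6 (1.36 to 1.63, edgeR adjusted p 4.73e-07) and 1.40 in E.G7 (1.26 to 1.56, adjusted p 3.02e-05). When the test asked for a change beyond 1.5-fold rather than any change, neither Batf nor Irf4 passed in either tumour (adjusted p 0.523 to 0.964, edgeR).

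Batf3 encodes a partner of JUN and IRF proteins that can stand in for BATF and that conventional type 1 dendritic cells need. It had 0 reads in each of the 4 LN libraries, which allows up to 0.0295 CPM over the group (3 counts, counting error only). It had 140, 120, 124 and 154 reads in the Hepa1-6 libraries, or 5.72, 4.96, 5.12 and 6.35 CPM, and 23 and 31 reads in E.G7, or 0.855 and 1.14 CPM. Batf3 was therefore at least 188-fold higher in Hepa1-6 and at least 33.9-fold higher in E.G7, each against the LN limit, though it was the least abundant of the 8 per length in every group. The edgeR adjusted p (1.04e-09 and 6.16e-07) belong to the fitted difference and not to this limit. With 0 reads in LN, Batf3 passed the filter through the tumour libraries and could only be called higher. The dendritic marker Clec9a, named here after its values were seen, stood at 4.79 ± 0.775 CPM in Hepa1-6, 1.02 ± 0.385 in E.G7 and 0.00971 in LN (1 of the 4 LN libraries above 0), and Flt3, another of that list, at 12.4 ± 0.346, 16.5 ± 0.698 and 0.336 ± 0.311 CPM. Xcr1, of the same list, stood at 9.17 ± 0.888 CPM in Hepa1-6, 5.38 ± 1.21 in E.G7 and 3.30 ± 0.760 in LN. Zbtb46 stood at 30.9 ± 2.48, 27.5 ± 3.12 and 8.14 ± 0.255 CPM in the same order. The part of dendritic cells in the Batf3 level was not tested.

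Maf encodes a basic leucine zipper factor that activates Il10. Levels of 60.9, 66.8, 58.4 and 60.9 CPM in LN compared with 134, 141, 130 and 138 CPM in Hepa1-6 and 71.3 and 82.3 CPM in E.G7. The Hepa1-6 libraries stood far above the others, and the E.G7 libraries just above LN. Maf was 2.20-fold higher in Hepa1-6 (2.001 to 2.416, edgeR adjusted p 1.77e-10) and 1.24-fold higher in E.G7 (1.11 to 1.39, adjusted p 0.00232). Without E.G7 replicate 2, the E.G7 difference was log2 0.21 with an adjusted p of 0.0729 (edgeR). The only gene of the table whose exons overlap those of a factor gene is Gm15655, on the other strand from Maf, and it had 0 reads in all libraries.

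Ikzf3 encodes Aiolos, which binds to and restrains targets together with other Ikaros family proteins. Its LN libraries held 168, 166, 198 and 192 CPM, those of Hepa1-6 held 191, 190, 204 and 187 CPM and those of E.G7 220 and 202 CPM. The Hepa1-6 and LN libraries overlapped and the difference did not pass (fold 1.06, 0.969 to 1.17, edgeR adjusted p 0.223). In E.G7 the fold was 1.16 (1.04 to 1.30, adjusted p 0.0218). This small difference did not pass without LN replicate 1, LN replicate 2 or E.G7 replicate 1 (adjusted p 0.0656, 0.0670 and 0.186, edgeR), nor with upper-quartile scaling (adjusted p 0.287), with a filter of 10 CPM (adjusted p 0.187) or in the test beyond 1.5-fold. Scaled on the pan T cell genes, Ikzf3 passed in Hepa1-6 too (log2 0.29, edgeR adjusted p 0.00155).

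**Figure D3:**
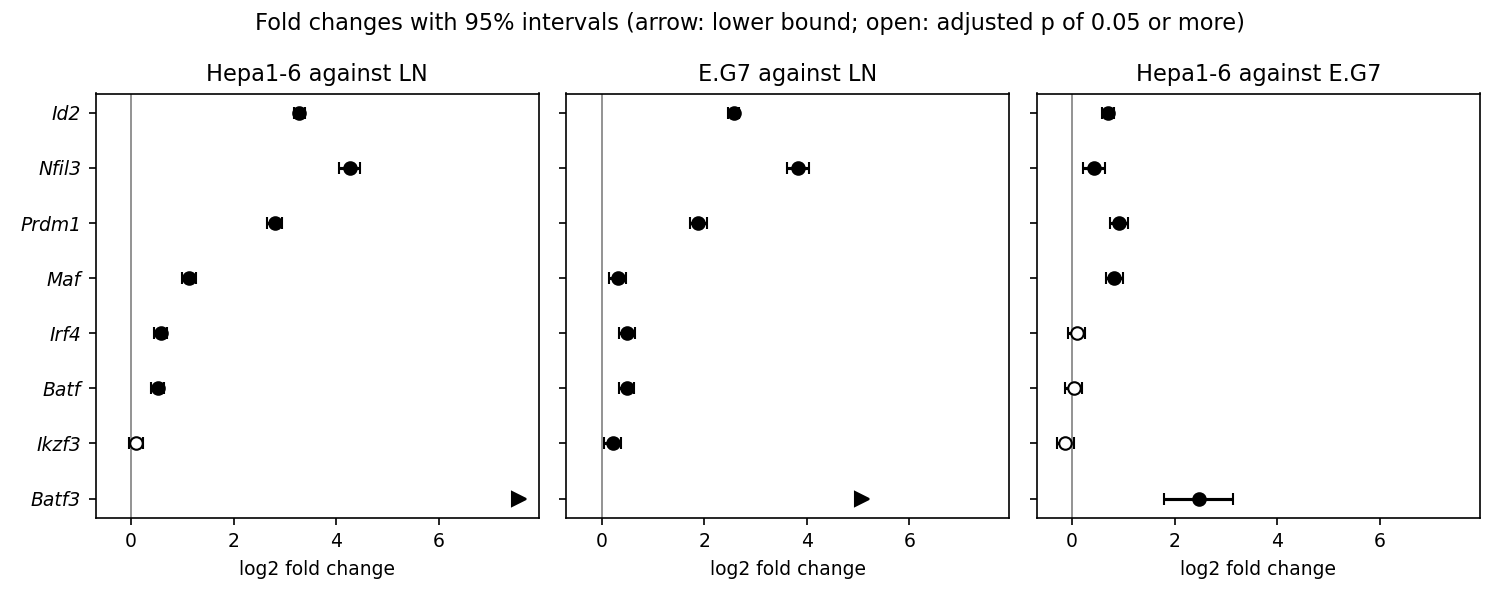
Log2 fold change of each factor gene in the 3 comparisons, with 95% intervals from edgeR, filled where the adjusted p is under 0.05. Arrows mark the lower bound for Batf3, which had 0 reads in LN (7.55 for Hepa1-6 and 5.08 for E.G7).

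The 7 genes that were higher in Hepa1-6 and the 8 in E.G7 also had every tumour library above every LN library, and 34.1% and 36.6% of all genes tested showed this in that direction. For Batf3 it follows from the 0 reads in LN. Ikzf3 in Hepa1-6 was the exception. Read against the other genes, the log2 difference of Nfil3 was above that of 90.4% of the genes tested in Hepa1-6 and 93.7% in E.G7, and that of Id2 above 88.2% and 90.2%. Batf and Irf4 were above 66.5% and 67.9% of genes in Hepa1-6, and Ikzf3 above 52.1%, near the middle.

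Per kilobase of gene length, the order of the 8 changed between lymph node and tumour. In LN, Batf led with 68.0 ± 4.86 CPM per kilobase (SD, n = 4), then Id2 (42.8 ± 1.38), Ikzf3 (20.7 ± 1.88) and Irf4 (15.7 ± 1.06). Nfil3 (7.79 ± 1.32) and Maf (7.49 ± 0.430) overlapped, and Prdm1 (5.12 ± 0.466) and Batf3 came last. Nfil3 and Prdm1, which differ so widely in tumours, thus started near the bottom. In Hepa1-6, Id2 (417 ± 18.3 CPM per kilobase, SD, n = 4) and Nfil3 (150 ± 2.98) stood above Batf (97.2 ± 2.03) and Prdm1 (35.6 ± 0.958). Irf4 (23.4 ± 0.651) and Ikzf3 (22.03 ± 0.836) overlapped there, above Maf (16.5 ± 0.586) and Batf3 (3.47 ± 0.397). Batf had gone from the first place to the third with its own level raised. The order in E.G7 was Id2 (255 ± 0.970, SD, n = 2), Nfil3 (110 ± 2.65), Batf (95.3 ± 7.26), Ikzf3 (24.1 ± 1.42), Irf4 (22.01 ± 1.44), Prdm1 (18.9 ± 1.58), Maf (9.32 ± 0.939) and Batf3 (0.625 ± 0.127). Nfil3 thus passed Batf in both tumours, and Prdm1 moved from below Maf in LN to above Maf in both. Of the summed level of the 8, Batf made up 40.5% in LN, 12.7% in Hepa1-6 and 17.8% in E.G7, Id2 25.6%, 54.5% and 47.6%, and Nfil3 4.63%, 19.6% and 20.6%. The sum itself rose from 167.5 ± 6.34 CPM per kilobase in LN to 764.2 ± 21.9 in Hepa1-6 and 535.7 ± 0.262 in E.G7.

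**Figure D4:**
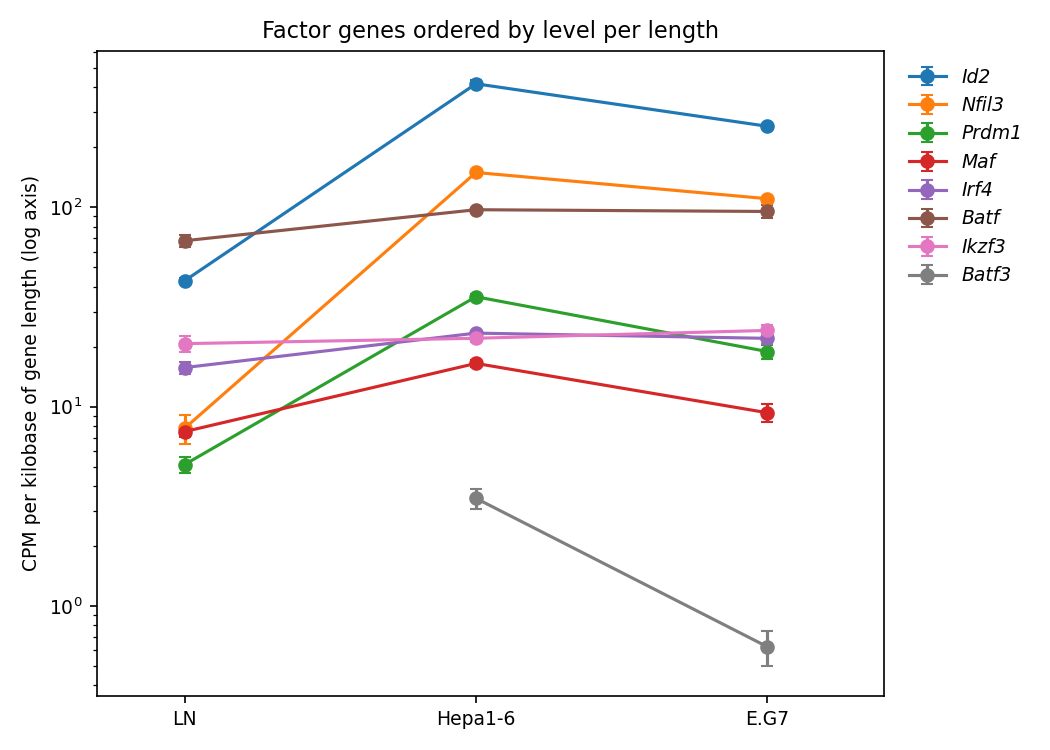
Mean level (CPM per kilobase of gene length, log axis) of each factor gene in LN, Hepa1-6 and E.G7 with SD (n = 4, 4 and 2), lines joining 1 gene. Batf leads in LN and Id2 and Nfil3 lead in both tumours, and Batf3, at 0 in LN, is drawn only for the tumours.

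Between the tumours, 5 of the 8 genes were higher in Hepa1-6 than in E.G7 and none was lower, where 26.1% of all genes tested were higher and 19.6% lower. The same 5 had every Hepa1-6 library above both E.G7 libraries, a pattern in 31.9% of genes in that direction. They were Batf3 (5.53-fold, 95% interval 3.48 to 8.77), Prdm1 (1.88-fold, 1.67 to 2.13), Maf (1.77-fold, 1.57 to 1.99), Id2 (1.63-fold, 1.505 to 1.774) and Nfil3 (1.35-fold, 1.17 to 1.57), with edgeR adjusted p from 3.84e-08 for Id2 to 0.00209 for Nfil3. Batf, Irf4 and Ikzf3 did not pass. Their intervals for Hepa1-6 over E.G7 were 0.915 to 1.14-fold for Batf, 0.952 to 1.19-fold for Irf4 and 0.815 to 1.02-fold for Ikzf3. With a fit of the 2 tumour groups alone, Ikzf3 was lower in Hepa1-6 (log2 -0.21, edgeR adjusted p 0.0163). The markers of dendritic cells and of macrophages and neutrophils were also higher in Hepa1-6 than in E.G7, in 8 of 10 and 12 of 12, and Trap1a was lower.

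A list of 12 AP-1 and BACH genes held the JUN partners of BATF and BATF3 beside other leucine zipper genes, so its counts are not those of partners alone. In Hepa1-6 against LN, 11 of the 12 were higher and 1 lower, with a median log2 difference of 2.17. In E.G7, 9 were higher and 2 lower, with a median of 1.59. Junb, the JUN protein that Treg cells need for many IRF4 targets, stood at 991 ± 19.96 CPM in LN, 3252 ± 55.1 in Hepa1-6 and 2399 ± 42.6 in E.G7 (SD, n = 4, 4 and 2). It was 3.28-fold higher in Hepa1-6. Jun split the tumours, at 505 ± 38.3 CPM in LN, 584 ± 20.3 in Hepa1-6 and 235 ± 20.3 in E.G7, so that it was 1.16-fold higher in one (edgeR adjusted p 0.00438) and fell by 1.11 on the log2 scale in the other (adjusted p 3.21e-09). The Hepa1-6 rise of Jun was not called with upper-quartile scaling (log2 0.03, adjusted p 0.677). Atf3, a stress-induced repressor, rose from 0.215 ± 0.182 CPM in LN to 417 ± 9.99 in Hepa1-6 and 61.1 ± 2.66 in E.G7, and Fosl2 from 10.2 ± 2.32 to 200 ± 16.8 and 137 ± 10.6.

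Bach2, which keeps Treg cells in the resting state and competes with AP-1 proteins, was the 1 gene of that list lower in both tumours. Its LN libraries held 77.9, 71.6, 84.6 and 81.5 CPM, those of Hepa1-6 12.3, 10.2, 10.2 and 10.4 CPM and those of E.G7 20.1 and 19.4 CPM. It fell by 2.87 on the log2 scale in Hepa1-6 and by 1.998 in E.G7 (edgeR adjusted p 9.18e-14 and 2.73e-10). Prdm1 and Bach2 thus crossed: the ratio of Prdm1 to Bach2 per length was 0.645 ± 0.0356 in LN, 33.1 ± 3.59 in Hepa1-6 and 9.51 ± 0.555 in E.G7.

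All 11 factors of resting Treg cells and naive T cells, a list that also holds Bach2 and Id3, were lower in Hepa1-6 than in LN (median log2 -1.07), or 10 of them when libraries were scaled on the pan T cell genes. In E.G7, 9 were lower and 2 higher (median -0.86). The 2 that rose in E.G7 were Myb, from 15.4 CPM in LN to 58.8 ± 6.82, and Tcf7, the TCF1 gene. Tcf7 stood at 362 ± 5.69 CPM in LN, 48.2 ± 5.84 in Hepa1-6 and 578 ± 11.2 in E.G7. Tcf7 and Myb are genes of immature T cells, and Dntt, a thymocyte gene, stood at 46.6 ± 4.50 CPM in E.G7 against 2.30 in LN, with Rag1 and Rag2 at 0 in both.

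A list of 6 genes set beside Id2 held other ID genes and E protein genes, so its counts are not those of E proteins alone. Of these, 5 passed the filter and Id4 had no read. In Hepa1-6, 2 were higher and 2 lower, and in E.G7 2 were higher and 1 lower. Id3, which like ID2 blocks E proteins but marks less differentiated T cells, went opposite to Id2: it stood at 152 ± 7.05 CPM in LN, 96.4 ± 3.88 in Hepa1-6 and 22.7 ± 1.12 in E.G7 and fell by 0.65 and 2.74 on the log2 scale (edgeR adjusted p 3.89e-08 and 1.99e-13). The ratio of Id2 to Id3 per length was 0.506 ± 0.0216 in LN, 7.75 ± 0.565 in Hepa1-6 and 20.1 ± 0.919 in E.G7, so E.G7 had the higher ratio although its Id2 level was the lower of the tumours. Id1 (0.626 CPM in LN) reached 75.9 ± 7.04 in Hepa1-6 and 2.55 ± 0.401 in E.G7. Tcf4, an E protein gene that plasmacytoid dendritic cells need, rose from 6.70 CPM to 140 ± 7.48 and 16.8 ± 1.53. The other E protein genes of the list, named here after their values were seen, were Tcf3 and Tcf12. Tcf3 stood at 31.5 ± 1.81 CPM in LN, 40.6 ± 20.6 in Hepa1-6 and 42.2 ± 8.89 in E.G7. Tcf12 stood at 68.0 ± 6.78, 44.5 ± 9.82 and 78.3 ± 5.33 CPM in the same order.

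Of 8 other IRF genes, 4 were higher and 3 lower in Hepa1-6 than in LN, and 3 higher and 5 lower in E.G7 (median log2 0.26 and -0.62). Irf8, a factor of dendritic cells, macrophages and B cells, rose more than Irf4, from 60.2 ± 3.57 CPM in LN to 530 ± 17.0 in Hepa1-6 and 174 ± 1.83 in E.G7. The ratio of Irf4 to Irf8 per length therefore fell from 1.84 ± 0.104 in LN to 0.312 ± 0.00952 in Hepa1-6 and 0.894 ± 0.0490 in E.G7. Irf5, of macrophages and B cells, rose from 25.4 CPM in LN to 189 in Hepa1-6 and 44.4 in E.G7. Irf9, a subunit of the type I interferon response complex, was lower in both tumours (263 CPM in LN, 138 in Hepa1-6 and 110 in E.G7). Irf1 was 2.17-fold higher in Hepa1-6 and rose in E.G7 too (282 CPM in LN, 613 in Hepa1-6 and 446 in E.G7).

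Among the other Ikaros family genes, none of 4 was higher and 3 were lower in Hepa1-6, and 1 was higher and 2 lower in E.G7. Ikzf2, which encodes Helios and is often used as a marker of thymic Treg cells, stood at 709 ± 53.1 CPM in LN, 601 ± 32.6 in Hepa1-6 and 523 ± 7.51 in E.G7 and fell by 0.24 and 0.44 on the log2 scale (edgeR adjusted p 0.00127 and 4.70e-05). Neither difference was called when libraries were scaled on the pan T cell genes (log2 -0.04 and -0.16). Ikzf1, the Ikaros gene, was lower in Hepa1-6 (388 against 175 CPM) and higher in E.G7 (477 CPM; not called with upper-quartile scaling, log2 0.18, edgeR adjusted p 0.0772), and Ikzf4, the Eos gene, was lower in both. The ratio of Ikzf3 to Ikzf2 per length was 0.340 ± 0.0288, 0.427 ± 0.0267 and 0.536 ± 0.0393 in LN, Hepa1-6 and E.G7.

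The 4 MAF family genes that passed the filter, of 6, were all higher in both tumours, and Nrl had no read. Maff and Mafg, small MAF proteins without an activation region, reached 18.1 and 58.6 CPM in Hepa1-6 from 2.75 and 22.1 in LN. Of the 8 D-box and clock genes set beside Nfil3, 3 were higher and 5 lower in Hepa1-6, and 2 higher and 4 lower in E.G7. Tef, an activator at the sites NFIL3 represses, fell from 27.3 ± 3.44 CPM in LN to 10.4 ± 0.469 and 13.6 ± 0.797, and the ratio of Nfil3 to Tef per length went from 2.31 ± 0.689 to 113 ± 6.34 and 64.0 ± 5.28. Per1 rose in both (62.1 CPM in LN, 240 and 228 in the tumours), while Per3 fell in both (15.2 to 4.20 and 7.14 CPM). The sources used here do not give the hour at which the mice were killed.

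Products of effector Treg cells moved with the factors. Of 16 such genes, 15 were higher and none lower in Hepa1-6 against LN (median log2 2.87), and 14 were higher and 1 lower in E.G7 (median 2.21). Il10, the suppressive cytokine tied to BLIMP1 and MAF, stood at 8.50, 9.10, 7.47 and 8.97 CPM in LN, 195, 200, 208 and 227 CPM in Hepa1-6 and 155 and 159 CPM in E.G7. It rose by log2 4.61 and 4.20 (edgeR adjusted p 6.75e-17 and 2.87e-15), and its difference between tumours (log2 0.41) was smaller than that of Maf or Prdm1 (0.82 and 0.91), a contrast not tested. Gzmb and Areg, a cytotoxic protease and a tissue repair ligand, rose by log2 5.89 and 6.03 in Hepa1-6 and 4.95 and 4.60 in E.G7. The 1 gene lower in E.G7 was Itgae, an integrin gene named here after its value was seen (log2 -1.53). Among 27 genes of receptor, cytokine and costimulatory signals upstream of the factors, 13 were higher and 8 lower in Hepa1-6 and 11 higher and 12 lower in E.G7. Nr4a1, an immediate target of T cell receptor signals, rose from 166 CPM in LN to 1066 ± 35.3 in Hepa1-6 and 911 ± 45.6 in E.G7, and Egr1 from 175 to 671 and 570. Il12rb2, a chain of the IL-12 receptor, rose from 0.718 CPM to 31.7 and 23.6.

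**Figure D5:**
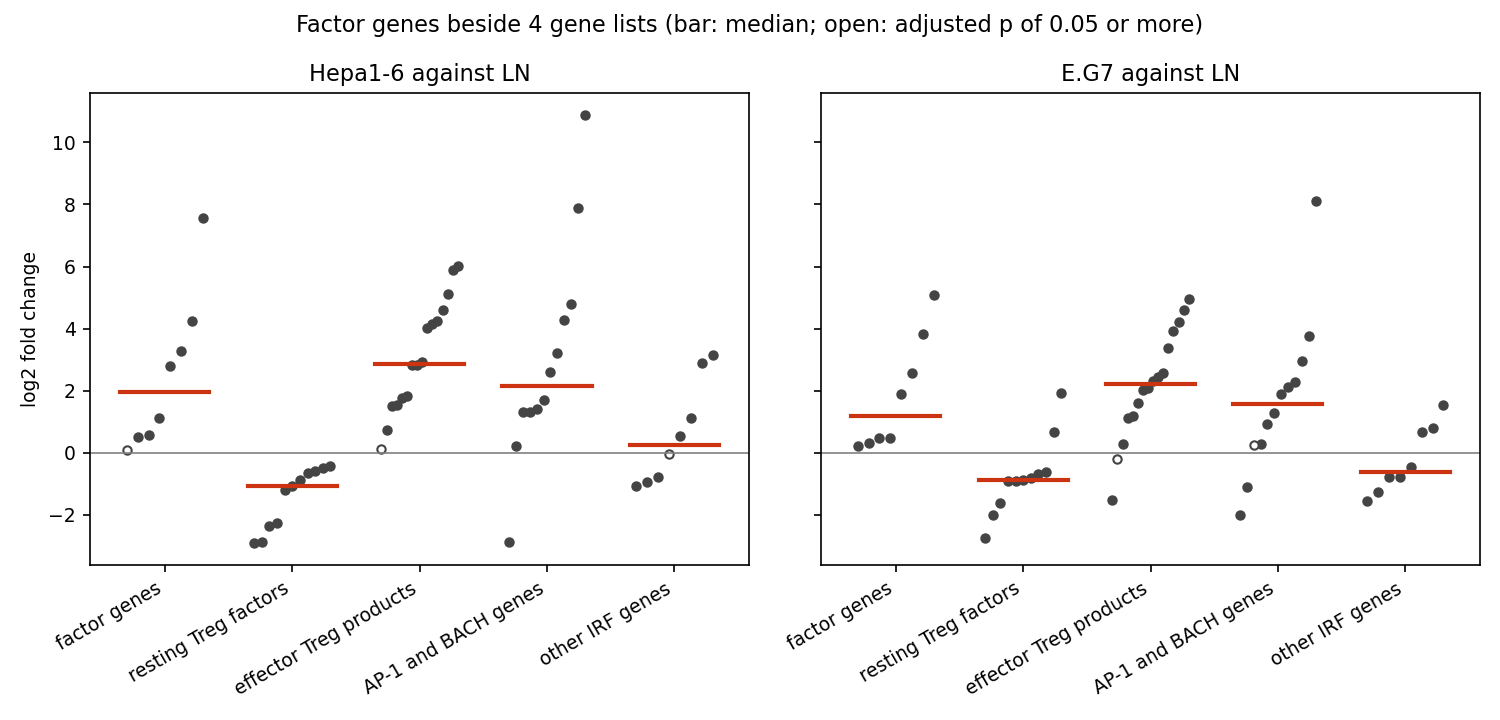
Log2 fold change against LN of the 8 factor genes and of 4 other lists, 1 point per gene, open where the adjusted p is 0.05 or more, with a red bar for the median. The resting Treg factors lie below 0 in Hepa1-6 (median -1.07), the effector products lie above it (median 2.87), and the factor genes spread from 0.09 to the bound of 7.55 for Batf3.

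Genes whose pattern over the 10 libraries lay nearest to each factor were taken from 9720 genes by the root mean square difference in log2 CPM relative to the LN mean. They were Chka and Agpat4 for Prdm1 (0.13 and 0.14), Lamtor5 and Cdk4 for Batf (0.05 and 0.06), Gcnt2 and Dusp3 for Batf3 (0.19 and 0.28), Ezr and Oat for Irf4 (0.06 and 0.07) and Spint2 and Actg1 for Maf (0.07 and 0.07). Those of Id2 were Lamc1 and Ero1l (0.15 and 0.18), those of Nfil3 were Anxa2 and Egln3 (0.17 and 0.21) and those of Ikzf3 were Copg1 and Bap1 (0.06 and 0.06). No factor was among the 2 genes nearest to another.

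The position of each gene is given on mm10, the build the submitters' processing notes name. Prdm1 lies on chromosome 10 (44437177 to 44528501, minus strand, counted exons of 5579 bases), Batf on 12 (85686669 to 85709087, plus, 1406 bases) and Batf3 on 1 (191097847 to 191108945, plus, 1597 bases). Irf4 lies on chromosome 13 (30749226 to 30766976, plus, 4903 bases), Maf on 8 (115682942 to 115707794, minus, 8241 bases) and Id2 on 12 (25093799 to 25097140, minus, 2438 bases). Nfil3 lies on chromosome 13 (52967209 to 52981073, minus, 2026 bases) and Ikzf3 on 11 (98464902 to 98546031, minus, 8754 bases). All 8 are protein coding in GENCODE M21, whose gene ends are the same as those of the deposited table.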

How the data were processed

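RNA-seq counts of 10 Treg libraries were analysed. Total RNA was extracted with TRIzol, and libraries were made by BGI and read on a BGISEQ-500, per the labels' protocols. The deposited table holds raw read counts per gene and a summed exon length, in the layout of featureCounts, per the file headers; the submitters' processing notes name HISAT2, featureCounts, Subread, RSEM, DESeq2 and mm10, with no versions, and the strand setting and annotation release are not given in the sources used here. The deposited FPKM values, the authors' length- and depth-scaled reads, were used only in alternatives.

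Counts were tested with edgeR 4.0.16 in R 4.3.3 (quasi-likelihood, robust, TMM scaling, filterByExpr), in 1 model over the 3 groups with 3 contrasts, and p-values were adjusted by Benjamini-Hochberg over 20068 genes (threshold 0.05). CPM per kilobase divides CPM by the deposited length. Alternatives used DESeq2 1.42.0, limma 3.58.1, other scalings, filters, fits and libraries left out. The fit was tested on simulated data. The 8 genes and all lists were chosen with earlier results of these data known. Named genes are the 8, 10 fixed genes (Foxp3, Cd4, Ikzf2, Bach2, Junb, Jun, Irf8, Id3, Il10 and Cd8a), for each list and comparison at most 3 called genes with the largest change and at least 10 CPM, markers at 0, and the 2 nearest genes of each factor. Others were named after their values were seen. Some genes that this rule takes are not reported here. Replicates differed by more than counting noise, so none was counted as a second reading of another library. Libraries made separately from the same RNA could differ in this way too, so this does not show that replicates came from separate mice.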

Additional observations from a re-analysis of the deposited data

Results flagged for a closer look

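The tumour effect against LN differed between the 2 tumours for 5 factor genes, by the test of Hepa1-6 against E.G7 itself (edgeR, adjusted p under 0.05). The log2 difference in Hepa1-6 exceeded that in E.G7 by 2.47 for Batf3, 0.91 for Prdm1, 0.82 for Maf, 0.71 for Id2 and 0.44 for Nfil3. In the 15 sets of 4 libraries examined, no factor gene had a library set apart from the others by Dixon's test at the 95% level.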

How the results depend on the processing

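Of the 24 log2 fold changes of the factor genes (8 genes, 3 comparisons), 454 values under alternatives kept the call, 13 lost it and 2 gained it. None that had been called changed sign, while 2 uncalled ones did: Ikzf3 in Hepa1-6 against LN with upper-quartile scaling (-0.09) and Batf between the tumours under 5 alternatives (down to -0.05). When the test asked for a change beyond 1.5-fold, 4 factor genes were called higher in E.G7 (8 before), and calls over all genes were 8141 in Hepa1-6 against LN, 7020 in E.G7 against LN and 4206 between the tumours. With a 10 CPM filter, which leaves fewer genes and drops Batf3, 6 factor genes were called higher in E.G7 and the calls over all genes were 8382 and 7913 against LN, and with log2(FPKM + 1) and log2(FPKM + 0.1) they were 8868 and 8851 in Hepa1-6. With only the 2 groups compared, 1 factor gene, Ikzf3, was called lower in Hepa1-6 than in E.G7. For the lost calls of Batf, Irf4, Maf and Nfil3 at 1.5-fold, the cause is the stricter test; for the others the cause was not tested. Replicate numbers are shared by the groups but did not pair the libraries (correlations of same-numbered libraries from -0.05 to 0.03); a replicate block gave 7, 8 and 5 factor genes higher and 13390, 11099 and 8369 calls over all genes. With 2 E.G7 libraries, leaving 1 out leaves a group of 1, assumed to vary like the others. Read depth limits only Batf3, at 23 and 31 reads in E.G7.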
